A study of Mus musculus with 2 samples.

Results

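The control IgG regions that stood alone on the chromosomes were described as a map of background in HC11 cells, a mouse mammary epithelial line derived from BALB/c mammary tissue. A region was a member if it lay on chromosomes 1 to 19 and if the gap to the nearest other IgG region on its chromosome was 100 kb or more, edge to edge. Of the 1045 regions in the IgG list, 991 lay on these chromosomes, and 712 of those (71.8%) were isolated in this sense. The other 279 had a neighbour within 100 kb, and 54 regions on X, Y and the mitochondrial genome were outside the rule. The members were thus chosen by their measured positions, so that their spacing and density are given as a description and without a test.

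Chromatin immunoprecipitation with sequencing (ChIP-seq) was done on untreated HC11 cells at passages 4 to 7, grown with insulin, epidermal growth factor and serum. There was 1 library with a control IgG and 1 library with a custom antibody against mouse Ovol2, a zinc finger transcription factor known for keeping cells epithelial. Each library is represented by a list of regions in mm9 coordinates, with 1308 Ovol2 regions on chromosomes 1 to 19. With 1 library per antibody there is no replicate check, the read depth is unknown, and all intervals below are 95% intervals that cover counting error only.

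Control IgG recognises no particular chromatin protein, so what it recovers samples the chromatin that is carried along with any antibody. Peak callers such as MACS, which the IgG region names refer to, report places where reads pile up above their surroundings. In general, background reads over a stretch of genome depend on how many copies of it the cells carry, how uniquely its sequence can be aligned and how open its chromatin is. None of these was measured here.

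The isolated regions were short and weak. Their median length was 124 bp (order-statistic interval 123 to 126 bp), with quartiles of 112 and 134 bp, and 551 of them (77.4%) were at least 100 and under 150 bp long. Regions of 200 bp or more numbered 33 (4.63%), and the longest spanned 852 bp. The score that the authors deposited for each region had a median of 57.3 (56.7 to 58.2) and quartiles of 53.5 and 64.2, close to the lowest score in the list, 50.01. A score below 60 was held by 446 regions (62.6%), a score from 60 to below 100 by 191 (26.8%), and a score of 100 or more by 75 (10.5%, exact binomial interval 8.38 to 13.02%). The summed length of all members was 94.5 kb.

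IgG regions with a neighbour within 100 kb had a similar median length, 129 bp (122 to 136 bp), but a wider spread, with quartiles of 96 and 181 bp. Their median score was 90.3 (78.7 to 103.8), and 128 of the 279 (45.9%, exact binomial interval 39.9 to 51.9%) scored 100 or more. Scores of 100 or more were therefore a larger share of the neighboured regions than of the isolated ones, with intervals that did not overlap. The neighboured regions were concentrated in a few places, with 67 of the 279 in the first 10 Mb of chromosome 9. From 10 to 20 Mb of chromosome 8 there were 42 IgG regions, of which 2 were isolated. The interval of the neighboured share counts each region as independent, and clustering can make it too narrow. Regions of 200 bp or more made up 21.1% of the neighboured regions. Both sets come from the same library, so these intervals do not measure variation between cultures.

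Over all 712 members, Spearman's rho between length and score was -0.04 and Pearson's r was 0.70. Within the members below 60 rho was 0.03, and within those from 60 to below 100 it was -0.16. Within the 75 members of score 100 or more rho was 0.65, and a length of at least 200 bp was reached by 33.3% of them, against 1.26% of the members below 100.

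The members just inside the 100 kb limit were a pair on chromosome 2 with a gap of 108.4 kb, chr2:5300342-5300419 (score 235.23) and chr2:5408812-5409064 (score 74.22). Just outside it was a pair on chromosome 17 with a gap of 99.96 kb, chr17:39238826-39238946 (score 50.93) and chr17:39338902-39339030 (score 50.65). The median gap of a member to the nearest IgG region was 955.6 kb, with quartiles of 448.6 and 1933 kb, and the largest was 17.7 Mb.

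The strongest isolated region, with a score of 3100, lay at chr9:35112726-35113195 and was 470 bp long. Chromosome 12 held 3 of the 10 highest scores, at chr12:75904809-75905530 (score 2332.06, 722 bp), chr12:3109769-3110145 (2119.59, 377 bp) and chr12:68160102-68160953 (2014.68, 852 bp). The others were at chr4:70039054-70039382 (score 2186.5), chr6:103599024-103599341 (2123.83), chr10:21862078-21862824 (1721.5), chr19:45724459-45724755 (1689), chr3:56379337-56379675 (1637.44) and chr18:56099108-56099309 (1451.29). Of these 10 regions, 5 were also among the 10 longest. Their gaps to the nearest IgG region ran from 340.0 kb on chromosome 9 to 5.79 Mb on chromosome 12, and their nearest Ovol2 regions were between 187.0 kb and 2.24 Mb away.

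The 5 long members outside the highest scores lay on chromosomes 11 and 4. They were chr11:34495266-34495748 (483 bp, score 206.49), chr11:108872958-108873433 (476 bp, score 1202.53), chr11:107060446-107060907 (462 bp, score 253.86), chr11:120298371-120298827 (457 bp, score 72.4) and chr4:64158768-64159145 (378 bp, score 719.63). On chromosome 11, 3 of these 4 lay beyond 100 Mb, in the part where isolated regions were also most frequent on that chromosome, as described below.

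Over the 2371 Mb spanned by the 19 chromosomes, counted between the outermost regions of both lists on each, there were 3.002 isolated IgG regions per 10 Mb. Chromosome 6 was densest, with 76 regions or 5.26 per 10 Mb (exact Poisson interval 4.15 to 6.59). Chromosome 8 followed with 63 or 5.02 (3.86 to 6.42), and chromosome 1 with 79 or 4.08 (3.23 to 5.09). The intervals of these 3 overlapped each other, so their order is not resolved at these counts.

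Chromosome 7 was sparsest, with 14 isolated regions or 0.94 per 10 Mb (0.52 to 1.58). Chromosome 13 held 19 or 1.62 (0.98 to 2.54), and chromosome 2 held 29 or 1.64 (1.10 to 2.35). Chromosome 6 was 5.58 times as dense as chromosome 7 (exact interval 3.13 to 10.7). All 14 IgG regions of chromosome 7 were isolated, so the rule removed none there. On chromosome 9, by contrast, only 41 of 112 IgG regions were isolated (36.6%), and it stood at 3.39 per 10 Mb (2.44 to 4.61). The interval lay wholly above the overall density on 4 chromosomes and wholly below it on 3. The other chromosomes, including 5 at 4.03 and 11 at 3.88 per 10 Mb, ran down to 14 at 2.03.

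The Ovol2 regions followed another order over these chromosomes. Their densities differed by 2.146-fold between the extremes, from 3.97 per 10 Mb on chromosome 18 to 8.51 on chromosome 11. Chromosome 7, lowest for isolated IgG regions, held 95 Ovol2 regions or 6.40 per 10 Mb (5.18 to 7.83), and chromosome 6, highest for IgG, held 66 or 4.57 (3.53 to 5.81). The Ovol2 density of chromosome 6 over that of chromosome 7 was 0.71 (exact interval 0.51 to 0.99), the opposite direction to the IgG ratio. Ovol2 counts varied more than counting error gives (variance 2.39 times the mean over bins of 10 Mb). The interval is therefore too narrow, and the pair was picked by IgG density, so this difference is not resolved. Over the 19 chromosomes, rho between the IgG and Ovol2 densities was 0.25 and r was 0.17, both given as a description.

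**Figure D1:**
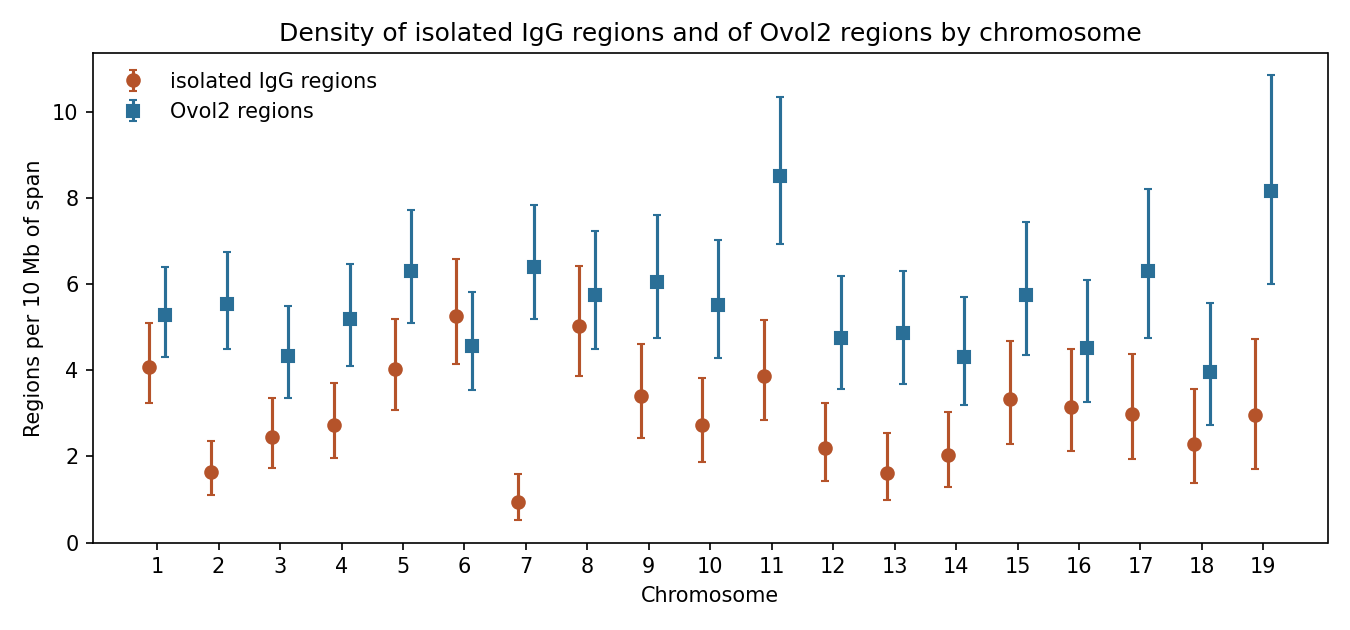
Isolated IgG regions (circles) and Ovol2 regions (squares) per 10 Mb of span on each chromosome, with exact Poisson 95% intervals as bars. Isolated IgG density runs from 0.94 on chromosome 7 to 5.26 on chromosome 6, while Ovol2 density on the same pair is 6.40 and 4.57.

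The spread between chromosomes was wider for weak members than for strong ones. Isolated regions with a score below 60 ranged from 0.34 per 10 Mb on chromosome 7 to 3.74 on chromosome 6. Those with a score of 100 or more ranged only from 0.17 on chromosome 2 to 0.60 on chromosome 18. Their number was 4 on chromosome 7 and 6 on chromosome 6, against 5 and 54 for scores below 60. The squared deviation of chromosome counts from their share by span, relative to what counting error alone gives on average, was 6.66 for scores below 60, 1.55 for scores from 60 to below 100 and 0.40 for scores of 100 or more. A value near 1 corresponds to counting error alone, and the value grows with the number of regions. The variance beyond counting error, relative to the squared mean count, does not, and was 0.24, 0.05 and -0.15 in the same order. For chromosome 6 over chromosome 7 the ratio of densities was 11.1 (exact interval 4.47 to 35.5) for scores below 60 and 1.54 (0.37 to 7.42) for scores of 100 or more. These intervals overlapped, but each left out the ratio of the other range. The difference between the ratios was not tested, and the pair was picked as the densest and the sparsest chromosome. Over chromosomes, the density of strong members had rho = -0.08 with that of weak ones. As the strong members did not vary between chromosomes beyond counting error, this low value says little about a relation.

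Chromosome 13, among the sparsest, held 5 members below 60, 9 from 60 to below 100 and 5 of 100 or more, which put its strong members at 0.43 per 10 Mb, against 0.41 on chromosome 9. Its weak members stood at 0.43 per 10 Mb against 2.24 on chromosome 9. The median score of the whole IgG list was 60, so a split at the list's median is the same as the limit at 60. With the members at or above the list's median score alone, chromosome 13 went from 0.54 to 1.07 times the density of all 19 chromosomes, and the ratio of chromosome 6 to chromosome 7 was 2.51 (exact interval 1.11 to 6.19).

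**Figure D2:**
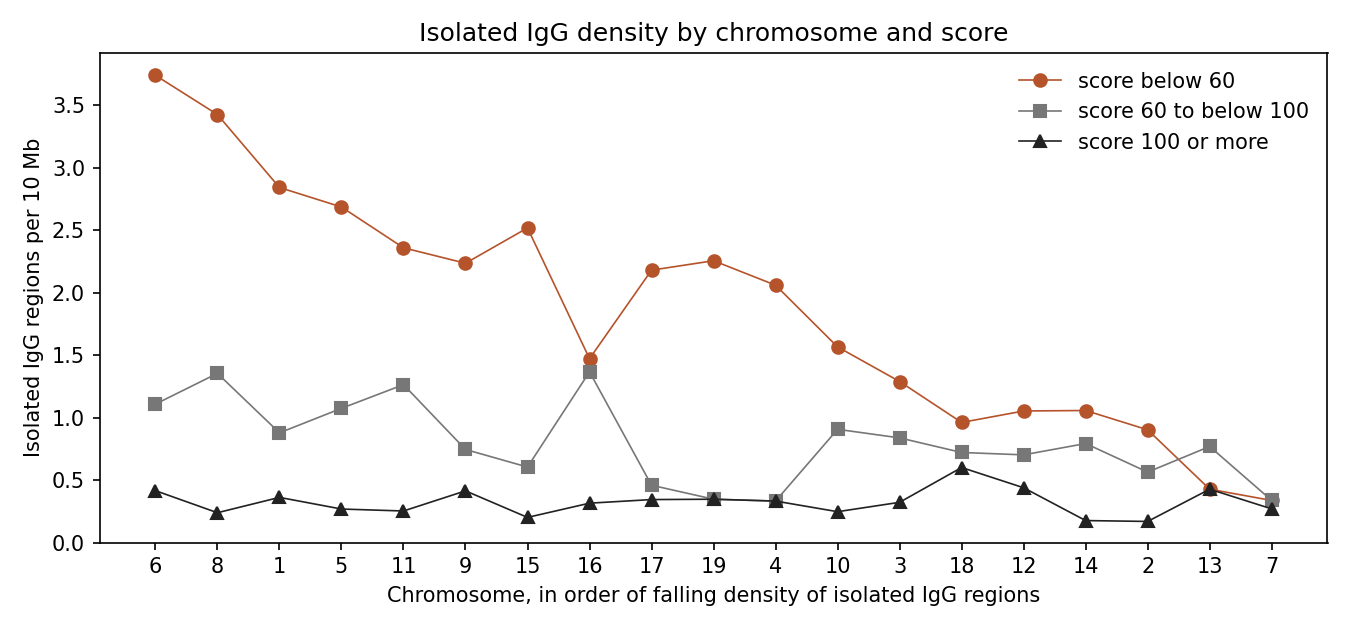
Isolated IgG regions per 10 Mb in 3 ranges of the deposited score, with chromosomes ordered by their total density. The line for scores below 60 goes from 3.74 on chromosome 6 to 0.34 on chromosome 7, and that for scores of 100 or more lies between 0.17 and 0.60.

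Along the chromosomes, members were counted by midpoint in 255 fixed bins of 10 Mb, 217 of them fully covered. A fully covered bin held a median of 2 and a mean of 2.83 isolated regions. The variance of these counts was 1.73 times their mean, and 1.31 times when each chromosome was given its own mean. For Ovol2 regions in the same bins the variance was 2.39 times the mean. A value of 1 is what even scattering would give on average. The 100 kb rule keeps crowded regions out and so bounds the counts of IgG from above.

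Among the 242 bins with at least 5 Mb covered, which leaves out 13 chromosome ends of up to 3 members each, the densest lay on chromosome 8 from 70 to 80 Mb, with 12 isolated regions (exact Poisson interval 6.20 to 21.0 per 10 Mb) and 7 Ovol2 regions. Chromosome 6 from 30 to 40 Mb held 10 (4.80 to 18.4) and 9 Ovol2 regions, and its first bin, with 6.87 Mb covered, held 8, or 11.7 per 10 Mb (5.03 to 23.0). Bins with 8 isolated regions also lay on chromosome 11 from 100 to 110 Mb and on chromosome 16 from 80 to 90 Mb (3.45 to 15.8 for each), where there were 10 Ovol2 regions and 0. The first bin of chromosome 9 held 6 isolated regions in 7 Mb, or 8.57 per 10 Mb (3.15 to 18.7), besides 67 other IgG regions, and no Ovol2 region. The last bins of chromosomes 10 and 12 stood at 8.02 per 10 Mb (3.22 to 16.5) and 7.09 per 10 Mb (2.30 to 16.6). A further 10 bins held 7 members each, on chromosomes 3, 4, 5, 6, 8, 9 and 11, and their Ovol2 counts ran from 0 to 15.

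Among all 255 bins, 35 (13.7%) held no isolated IgG region. Of these, 29 held no IgG region at all, and 6 held only regions with a close neighbour. Chromosomes 2 and 7 had 7 empty bins each, chromosomes 4 and 9 had 4 each, and 7 chromosomes had none. There were 4 runs of 3 empty bins: chromosome 7 from 30 to 60 Mb and from 110 to 140 Mb, chromosome 9 from 80 to 110 Mb, and the end of chromosome 4 from 130 Mb. Runs of 2 lay on chromosome 2 from 30 to 50 Mb, from 100 to 120 Mb and from 170 Mb to its end, and on chromosome 15 from 90 Mb to its end. The longest stretch without any IgG region spanned 42.1 Mb of chromosome 7, chr7:102942618-145017557, and contained 23 Ovol2 regions.

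The empty bins were not empty of Ovol2 regions. They held 179, or 5.60 per 10 Mb, against 5.52 over all chromosomes. The runs on chromosome 7 held 20 and 16 Ovol2 regions, that on chromosome 9 held 15, and that at the end of chromosome 4 held 25. Of the 15 bins without an Ovol2 region, 1 also lacked an isolated IgG region.

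**Figure D3:**
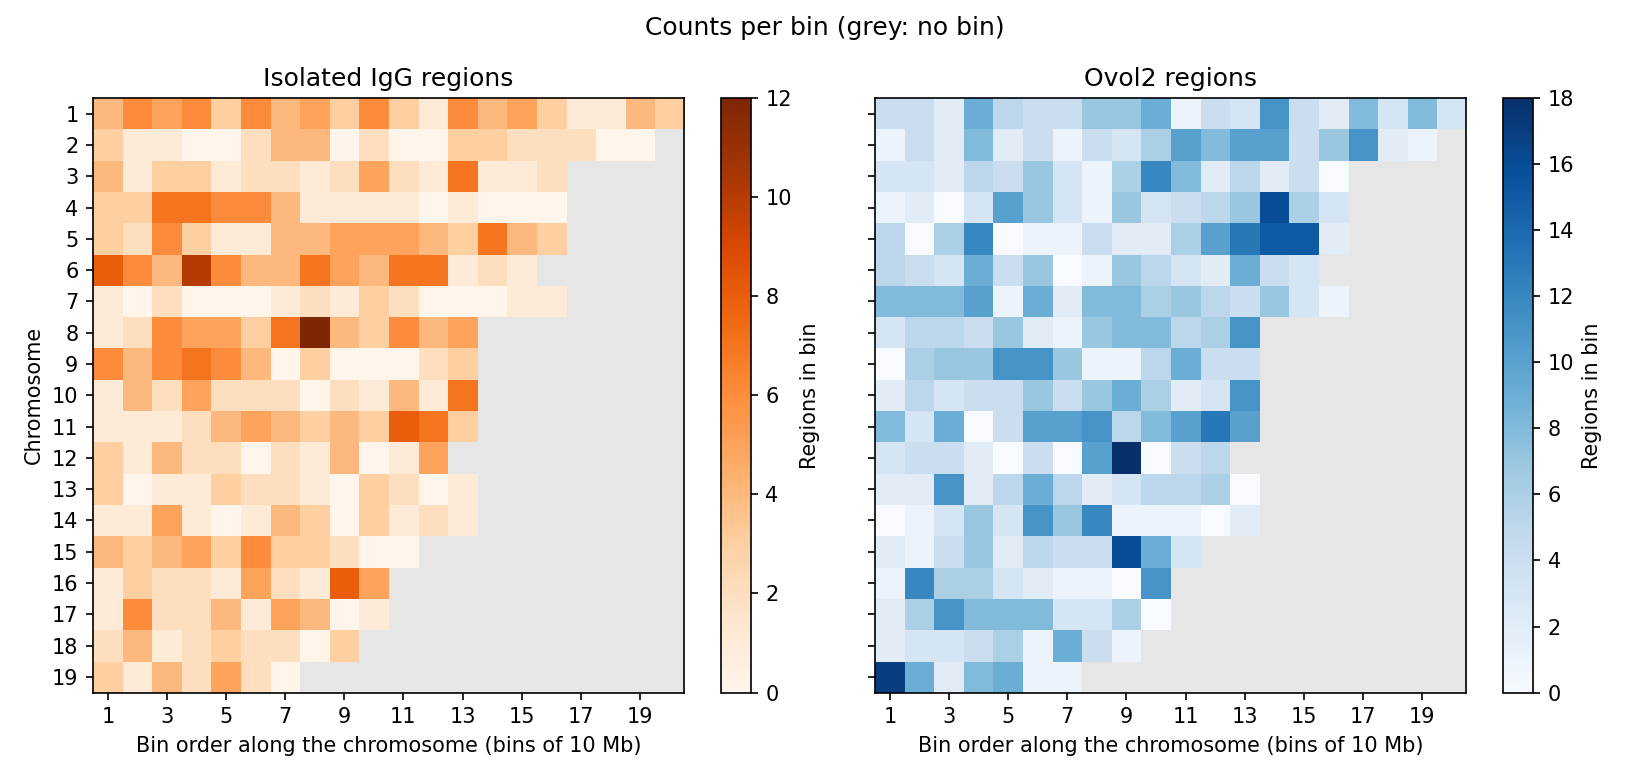
Number of isolated IgG regions (left) and of Ovol2 regions (right) in each bin of 10 Mb, with chromosomes as rows and bins in order from the start of the chromosome. The bin with most isolated IgG regions holds 12 and lies on chromosome 8, and the first 7 bins of chromosome 4 hold 3 to 7 regions against 0 or 1 in the remaining 9.

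Within chromosomes, the density of isolated regions changed in steps on a few of them. For each chromosome the boundary between bins was taken at which 2 densities described the counts best (largest gain in Poisson log-likelihood, with at least 3 bins on each side). Because each boundary was chosen by the counts, the contrast on its sides is a description, and tends to be larger than at a boundary chosen otherwise. Every chromosome was given such a boundary, and a step was not compared with a gradual change. The 6 chromosomes with the largest gain were 4, 9, 6, 11, 15 and 16, in that order. The gain was 16.9 on chromosome 4 and 2.30 on chromosome 16, close to the 1.98 of chromosome 1, which came next.

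Chromosome 4 had the steepest step, at 70 Mb. The 7 bins before it held 3, 3, 7, 7, 6, 6 and 4 isolated regions, and the 9 bins after it 1, 1, 1, 1, 0, 1, 0, 0 and 0, so the sides did not overlap. The density went from 5.37 per 10 Mb (3.76 to 7.44) to 0.60 (0.19 to 1.40), a ratio of 8.98. Members with a score below 60 accounted for most of it, with 29 before and 2 after the boundary, while those of 60 or more numbered 7 and 3. With members at or above the list's median score alone, the best boundary moved to 110 Mb, with 10 members before and 0 after it. With a gap of 50 kb as the rule, 36 regions lay before 70 Mb and 9 after, and the contrast was -2.32 in place of -3.17 on the log2 scale, after over before. Ovol2 regions stood at 3.88 per 10 Mb before and 6.23 after the boundary. Their density on the IgG-rich side was 0.62 times that on the other (exact interval 0.37 to 1.02).

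On chromosome 9 the density went at 60 Mb from 5.79 per 10 Mb (3.99 to 8.13) to 1.25 (0.54 to 2.47). The 6 bins before it held 4 to 7 isolated regions and the 7 bins after it 0 to 3. Members below 60 numbered 24 before and 3 after, and those of 100 or more 3 and 2. Ovol2 density was 7.37 before and 4.86 after, a ratio of 1.52 (exact interval 0.93 to 2.49). The IgG contrast, -2.21 on the log2 scale, was -3.16 with members below the list's median score alone. With those at or above it, the boundary moved to 40 Mb, the IgG contrast was -1.59, and the Ovol2 contrast turned to 0.23 on the log2 scale, after over before, from -0.60.

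Chromosome 6, the densest, went at 120 Mb from 6.16 per 10 Mb (4.82 to 7.76) to 1.45 (0.40 to 3.72). Its first 12 bins held 4 to 10 isolated regions, and its last 3 held 1 or 2. This contrast of -2.08 on the log2 scale was -0.67 with bins of 20 Mb, where the boundary moved to 80 Mb. With members at or above the list's median score, 22 lay before 120 Mb and 0 after it. The value of -0.79 in that case rests on setting the empty side at 3 counts, so it does not show a weaker step. Ovol2 density was 4.28 before and 5.81 after, and with bins shifted by 5 Mb the Ovol2 contrast turned from 0.44 to -0.05 on the log2 scale. Chromosome 15 went at 80 Mb from 4.07 (2.77 to 5.78) to 0.86 (0.10 to 3.12), with only 2 members in the last 23.1 Mb. Its contrast of -2.24 on the log2 scale was smaller under several alternatives, down to -1.26 at 60 Mb with bins of 20 Mb. With 2 bins on each side, 33 members lay before 90 Mb and 0 after it. The value of -0.75 in that case rests on setting the empty side at 3 counts. The side after the boundary was also empty with bins of 5 Mb (33 and 0) and with members at or above the list's median score (8 and 0). The Ovol2 density there was 3.81 before and 12.1 after, so that the IgG-rich side had 0.31 times the Ovol2 density of the other (exact interval 0.18 to 0.55). With bins of 5 Mb the boundary moved to 85 Mb, and the Ovol2 contrast was 0.54 in place of 1.67 on the log2 scale, after over before.

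Chromosomes 11 and 16 had the opposite orientation. On chromosome 11 the density went at 100 Mb from 2.89 per 10 Mb (1.92 to 4.17) to 8.30 (4.92 to 13.1), with 28 members before and 18 after. Ovol2 density went the same way, from 7.01 to 15.2 (ratio 2.17, exact interval 1.39 to 3.34). Of the 33 Ovol2 regions after 100 Mb, 10 lay in the last 1.69 Mb of the span, while the bins from 100 and from 110 Mb held 10 and 13. Part of the Ovol2 contrast thus rests on this short end. The place of this boundary depended on several choices. It moved to 40 Mb with a gap of 200 kb, with spans from base 1 and with members below the list's median score, to 35 Mb with bins shifted by 5 Mb, and to 80 Mb with bins of 20 Mb. The contrast on the log2 scale was 1.52 as reported and between 1.14 and 2.56 under the alternatives. On chromosome 16 the density went from 1.92 (0.88 to 3.64) to 4.35 (2.69 to 6.65) at 50 Mb, and its intervals overlapped. The contrast of 1.18 on the log2 scale was 1.83 with members below the list's median score. Ovol2 density there was 5.97 before and 3.11 after, a contrast of -0.94 on the log2 scale that turned to 0.53 with bins of 5 Mb, where the boundary moved to 80 Mb.

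Over all 19 chromosomes, the denser side for IgG lay toward the chromosome start on 10 and toward the end on 9. Ovol2 density was higher on the IgG-rich side on 10 chromosomes and lower on 9. The exact interval of the Ovol2 ratio lay above 1 on 2 of them and below 1 on 1. These intervals cover counting error only and are too narrow, as Ovol2 counts per bin had a variance of 2.39 times their mean. The Ovol2 list was not used to place these boundaries.

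**Figure D4:**
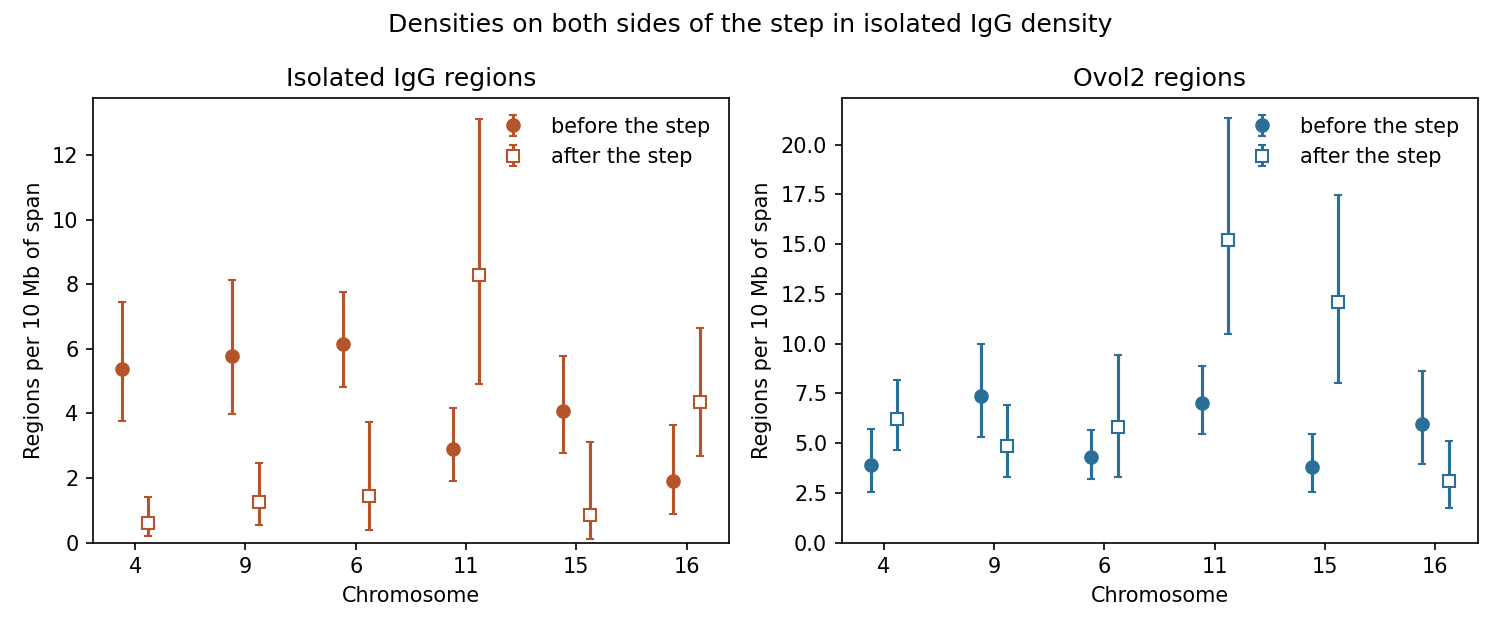
Isolated IgG regions (left) and Ovol2 regions (right) per 10 Mb before (filled circles) and after (open squares) the boundary chosen from IgG counts on 6 chromosomes, with exact Poisson 95% intervals. On chromosome 4 IgG density is 5.37 before and 0.60 after the boundary, and Ovol2 density is 3.88 and 6.23.

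When the 6 chromosomes were pooled, weak members gave the largest contrast. The chromosomes and boundaries were chosen from the counts of all members, 62.6% of which scored below 60. The ratios are therefore a description and tend to be large, above all for weak members. Their intervals do not cover this choice. Members below 60 numbered 147 on the IgG-rich sides and 32 on the others, a ratio of densities of 4.06 (exact interval 2.75 to 6.15). The ratio was 2.09 (1.20 to 3.79) for scores from 60 to below 100, with 45 and 19 members, and 3.36 (1.21 to 11.5) for scores of 100 or more, with 19 and 5. The interval of the strong members included the ratio of the weak ones, so these ranges could not be told apart at these steps. The intervals of the weak and the middle range overlapped, but each left out the ratio of the other. On the other 13 chromosomes, with boundaries placed in the same way, the ratios were 1.83 (1.40 to 2.39), 1.45 (0.997 to 2.13) and 1.09 (0.60 to 1.98) from the weakest to the strongest range. These intervals overlapped, so the ranges could not be told apart there either.

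Bin by bin, the number of Ovol2 regions bore little relation to that of isolated IgG regions. Over the 242 bins with at least 5 Mb covered, rho between the densities was 0.09 and r was 0.10, and rho was 0.09 with each chromosome's mean removed. Bins with 0 or 1, with 2 or 3, and with 4 or more isolated IgG regions held 5.00 (exact Poisson interval 4.51 to 5.52), 5.62 (5.10 to 6.19) and 5.90 (5.40 to 6.44) Ovol2 regions per 10 Mb. These intervals overlapped between neighbouring classes. Bins next to each other on a chromosome resembled each other weakly in both lists. With chromosome means removed, r over 223 adjacent pairs was 0.15 for isolated IgG regions and 0.13 for Ovol2 regions.

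Ovol2 regions were longer in bins with more isolated IgG regions. Their median length was 837 bp (order-statistic interval 805 to 864 bp) in the 88 bins with 0 or 1 isolated IgG region, 905 bp (864 to 933 bp) in the 80 bins with 2 or 3, and 949.5 bp (904 to 994 bp) in the 87 bins with 4 or more. The intervals of the first and last class did not overlap. Over 180 bins with at least 3 Ovol2 regions, rho between isolated IgG density and median Ovol2 length was 0.39 and r was 0.40, and rho was 0.27 with chromosome means removed. A relation of this kind between whole chromosomes was already known from an earlier look at these lists, so it is not independent support.

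The same difference in Ovol2 length was seen across several of the steps. On chromosome 9, Ovol2 regions had a median of 1068 bp (959 to 1100 bp) before 60 Mb and 820 bp (674 to 873 bp) after it. On chromosome 6 the medians were 1036 bp (886 to 1150 bp) and 842.5 bp (784 to 872 bp), and on chromosome 11 they were 933 bp (869 to 974 bp) and 1330 bp (1200 to 1766 bp). In these 3 cases the longer Ovol2 regions lay on the IgG-rich side and the intervals did not overlap. On chromosome 11 the value after the boundary includes 10 Ovol2 regions in the last 1.69 Mb, with a median of 1911 bp. The bins from 100 and from 110 Mb had medians of 1092 and 1326 bp. On chromosome 4 the medians were 991.5 bp (870 to 1107 bp) and 884 bp (803 to 960 bp), with overlapping intervals. Chromosome 15 showed little difference, with 853 and 841 bp, and on chromosome 16 the longer regions lay on the IgG-poor side, with 944.5 against 757 bp.

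Comparing bins of 4 or more with bins of 0 or 1 inside the 14 chromosomes that had at least 5 Ovol2 regions in each, the median Ovol2 length was greater in the IgG-rich bins on 10 and smaller on 4. The difference ran from -218 bp on chromosome 16 to 231.5 bp on chromosome 9, with a median of 40.8 bp. Over the 19 chromosomes, median Ovol2 length had rho = 0.77 with the density of members below 60, 0.34 with that of members from 60 to below 100, and -0.23 with that of members of 100 or more. The strongest range holds only 75 members, whose counts did not vary between chromosomes beyond counting error (0.40, where 1 is counting error alone). Its rho therefore cannot show whether such a relation is absent for strong members.

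**Figure D5:**
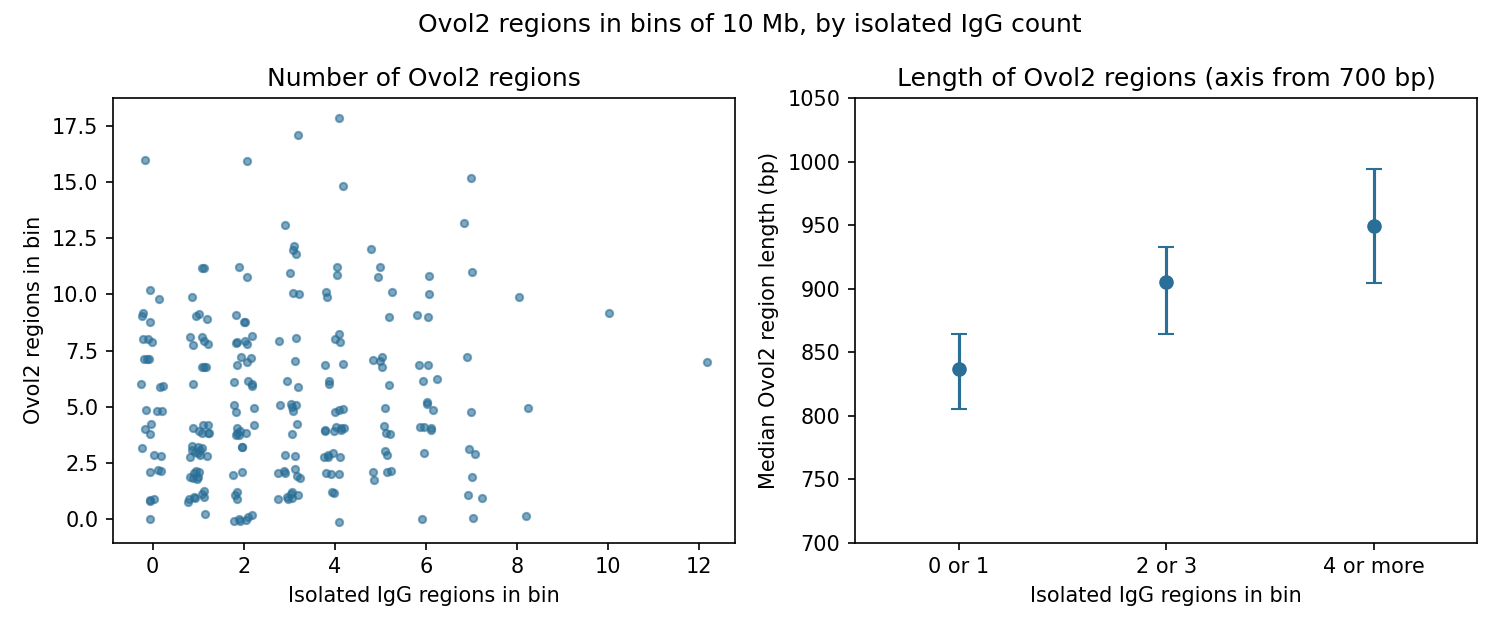
Left, Ovol2 regions against isolated IgG regions in each bin of 10 Mb with at least 5 Mb covered, 1 point per bin with a small random offset. Right, median Ovol2 length with its order-statistic 95% interval by class of bin, from 837 bp in the sparsest class to 949.5 bp in the densest.

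Most isolated IgG regions had no Ovol2 region close by. The median distance from a member to the nearest Ovol2 region was 784.0 kb, with quartiles of 274.9 and 1877 kb. An Ovol2 region lay within 100 kb of 92 members (12.9%) and within 10 kb of 19 (2.67%). For the neighboured IgG regions the share within 100 kb was 4.30%. The shares expected from the number and spacing of the regions alone were not computed, so these values show neither avoidance nor attraction. The farthest member, chr3:158153616-158153718, was 11.7 Mb from any Ovol2 region.

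Overlap with an Ovol2 region by at least 1 bp was found for 4 members (0.56%, exact binomial interval 0.15 to 1.43%). Of the 4, 3 lay wholly inside it. The 4 members were chr4:43506933-43507039 (score 55.89), chr6:136752668-136752793 (55.8), chr9:36575618-36575726 (62.51) and chr10:11211886-11211992 (66.54). All 4 were between 107 and 126 bp long, and their scores were 66.54 or less. Among the neighboured IgG regions 2 of 279 overlapped an Ovol2 region (0.72%). The Ovol2 regions they met were 1359, 850, 839 and 285 bp long, in the same order. Whether the IgG library was used as a control when the Ovol2 list was made is not known, so the share of overlap does not measure how far the antibodies recovered the same places.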

How the data were processed

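ChIP-seq regions of HC11 cells were taken as deposited, 1 list per antibody. Per the submitters' processing notes, Bowtie 0.12.8, SAMtools 0.1.18 and bedtools 2.15.0 were used with build mm9. The names in the IgG list refer to MACS. For the Ovol2 list, the caller is not given in the sources used here, nor is any threshold. The authors deposited a score per IgG region with no stated scale, used only within that list, and no score for Ovol2 regions.

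Gaps were measured edge to edge to any IgG region, and regions were binned by midpoint. Density is per span between the outermost regions of both lists, a choice that trims any end without a region, assembled or not. The span therefore depends on the regions themselves. Of the first bin, only 2.61 Mb was covered on chromosome 10 and 0.88 Mb on chromosome 14. Intervals are exact Poisson for counts, conditional binomial for ratios, Clopper-Pearson for shares and order-statistic for medians, at 95%. No p-values were computed, since regions of 1 library are not replicates, and the depth is unknown. The step finder was tested on simulated steps of the same large size, with the denser side first. Smaller steps and chromosomes without a step were not simulated. Python 3.11.15, numpy 2.4.6, pandas 2.3.3, scipy 1.17.1 and matplotlib 3.10.9 were used.

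The members and lists were chosen with earlier results of these data known. Named regions and bins were the 10 highest scores, the 10 longest, all that overlap Ovol2 regions, the 10 densest bins among those with at least 5 Mb covered, with ties (10 bins tied at 7 members are given together), the longest empty runs, the 6 steepest steps, and the 3 densest and 3 sparsest chromosomes. The score ranges, with limits at 60 and 100, and the Ovol2 lengths beside the steps were chosen after the data were seen. Neither genes nor sequences are given for regions, as mm9 reference files were not used here.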

Additional observations from a re-analysis of the deposited data

How the results depend on the processing

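No paired analysis was possible because each antibody has 1 library. Across the alternatives, 85 of 94 recomputed main values stayed within their interval or within 1.5 times, or, for rho, within 0.1 of the value reported. A gap of 50 or 200 kb, counting IgG regions within 100 kb once, and spans from base 1 took none of them out of these limits, but the limits on steps are wide. The gap of 50 kb brought the step of chromosome 4 from -3.17 to -2.32 (log2), that of 200 kb brought chromosome 15 from -2.24 to -1.59, and bins of 20 Mb brought chromosome 6 from -2.08 to -0.67. Using only members at or above the list's median score left 266 regions, by construction fewer, with a median length of 121 bp and a median score of 67.9. The ratio of chromosome 6 to chromosome 7 was then 2.51, the variance of bin counts was 1.04 times the mean, and chromosome 13 turned from below to above the overall density (1.07). The step of chromosome 4 moved to 110 Mb with 10 members before and 0 after, or -0.44 on the log2 scale with the empty side set at 3 counts over that side. With members below that median alone, an alternative added after seeing the data, chromosome 6 over 7 was 11.1 and the step of chromosome 11 was 2.56 (log2) at 40 Mb. Because the list's median was 60, both of these sets repeat the split at 60 described above and are not a separate check of it. Bins of 20 Mb gave a variance of 2.70 times the mean. The direction of all 6 steps was kept under each alternative that gave a value, but the boundary stayed within 10 Mb in only 5 of 10 for chromosome 11 and 6 of 9 for chromosome 16. Bins of 20 Mb gave chromosome 16 no boundary. The Ovol2 contrast changed direction on chromosome 6 with shifted bins (-0.05), on chromosome 9 with the higher scores (0.23), and on chromosome 16 with bins of 5 Mb (0.53), shifted bins (0.26) and 2 bins on each side (0.53). The alternatives on sequence were not run. The number of regions limits the precision of every density.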
